A study of Homo sapiens with 27 samples.

Results

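The MYC, MAX and MXD network was followed across all 9 groups of an RNA-seq study of MCF10A cells, a non-tumorigenic human breast epithelial line. Its 9 members were the rows of the deposited count table whose gene symbol was MYC, MYCL, MAX, MXD1, MXD3, MXD4, MXI1, MNT or MLX. Each of the 9 symbols was found once among the 29371 symbols of the table, and 9 of 9 passed the filter on low counts.

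Cells grown with 20 ng/ml EGF were held for 18 h without growth factors and then given EGF (epidermal growth factor), OSM (oncostatin M) or TGFB (transforming growth factor beta), each at 10 ng/ml, singly or together. The 9 groups were T0, collected at 0 h when ligand was added to the others, PBS, which received vehicle, EGF, OSM, TGFB, EGF+OSM, EGF+TGFB, OSM+TGFB and EGF+OSM+TGFB, the last 8 collected at 24 h. Each group had 3 polyA RNA libraries. The starvation was shared by all groups, PBS and T0 included. The labels do not say that the 3 libraries came from separate cultures, so p-values measure the spread between libraries, which may be technical. All libraries came from 1 cell line, which is known to carry extra copies of the region that holds MYC and to have lost the CDKN2A and CDKN2B locus.

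MYC is a transcription factor that binds DNA only as a pair with MAX. MYC-MAX pairs sit on the E-box CACGTG and raise transcription of genes for ribosome assembly, nucleotide synthesis and cell growth. MXD1, MXD3, MXD4, MXI1 and MNT also pair with MAX, bind the same E-box and recruit SIN3 co-repressors, so they compete with MYC for partner and site. MLX is a MAX relative that pairs with MLXIP and MLXIPL, glucose-responsive activators, and also with some MXD proteins and MNT. MYC is induced by many mitogens, and its repression is a classical part of growth arrest by TGFB in epithelial cells.

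Libraries held 30.1 M to 52.9 M counts (median 39.5 M), and 15575 genes (entries of the table after summing rows that share a symbol) were tested. In 27 of 27 libraries the most correlated library belonged to the same group. Levels below are CPM, each library's counts divided by its total and scaled by the TMM factors of edgeR, which set libraries on a common footing. Differences are log2 fold changes from the quasi-likelihood test of edgeR, p-values were adjusted by Benjamini-Hochberg over all genes tested, and a difference is called at an adjusted p under 0.05. The basal keratins KRT5, KRT14 and KRT17 were high, and the 6 basal epithelial markers summed to 11224 to 22104 CPM per library. Luminal markers were also present: the 5 listed summed to 384 to 973 CPM per library. On CPM without TMM scaling, group means of KRT8 ran from 157 with OSM to 610 with all 3 ligands. Those of KRT18 ran from 127 with PBS to 425 with EGF+OSM, while PGR had at most 1 count in any library. The general epithelial markers CDH1 and EPCAM summed to 159 to 726 CPM. Of the defining markers of other cell types, COL3A1 had at most 2 counts in any library, CD3E at most 5, CDH5 at most 6, PDGFRA at most 9 and PTPRC at most 10. Other genes of the same marker lists were present and moved with ligand. On CPM without TMM scaling, DCN had group means of 8.79 to 12.2 in the 4 groups that received EGF and 71.3 to 100.9 in the other 5. COL1A1 ran from 4.95 with EGF+OSM to 116 with TGFB (42.5 with PBS), and CD14 from 1.80 with EGF+TGFB to 62.4 with OSM (34.2 with PBS). VWF ran from 0.0166 with EGF+OSM to 2.80 with PBS, and PECAM1 from 0.256 with all 3 ligands to 1.63 with OSM. The 4 fibroblast markers summed to 12.9 to 221 CPM, the 3 endothelial markers to 0.244 to 5.02 CPM and the 3 leukocyte markers to 1.78 to 76.8 CPM, and their part in the results below was not tested.

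Of the members' RefSeq promoters (250 bases before to 50 after a start site, 11 windows for 8 members, none used for MYC), 3 held the E-box, those of MXD4, MNT and MLX. These are shown because they held the E-box, and not for their response. With EGF, MXD4 and MNT fell and MLX rose. Of the members whose windows held no E-box, MXI1, MXD1, MYCL and MAX fell with EGF and MXD3 rose. The 3 stretches below are on GRCh38.p14, read 5′ to 3′ on the gene's strand, up to 30 bases on either side of the E-box within the bases before the start, with CACGTG in capitals.
MXD4: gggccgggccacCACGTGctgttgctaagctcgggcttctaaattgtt
MNT: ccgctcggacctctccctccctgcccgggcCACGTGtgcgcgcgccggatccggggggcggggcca
MLX: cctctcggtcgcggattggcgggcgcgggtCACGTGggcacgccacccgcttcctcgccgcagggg
The MXD4 stretch lies at chr4:2262312-2262359 on the minus strand, with the first base of the E-box at −238 from the start. The MNT stretch lies at chr17:2401218-2401283 on the minus strand, with the E-box at −193, and the MLX stretch at chr17:42567020-42567085 on the plus strand, with the E-box at −50. CACGTG, which reads the same on both strands, occurred in 7.26% of 35116 promoter windows of 300 bases. The E2F motifs TTTCCCGC (in 1.63% of windows) and TTTGGCGC (in 0.652%) and the STAT motif TTCCNGGAA (in 1.15%), searched on both strands, had no match in the 11 windows. A match of letters is a description of the window and no evidence of binding.

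MYC (chromosome 8, 127735434 to 127742951 on GRCh38, plus strand) rose with EGF and with OSM, fell with TGFB, and fell in every combination that held TGFB. The 3 PBS libraries had 253, 255 and 246 CPM, and those of T0 218, 285 and 309 CPM. With EGF the libraries stood at 330.0, 351 and 353 CPM, with OSM at 384, 399 and 361 CPM and with EGF+OSM at 393, 384 and 396 CPM. All 9 of these ligand libraries lay above all 3 PBS libraries. In the TGFB groups MYC was 195, 189.5 and 196 CPM with TGFB, 163, 161 and 201 CPM with EGF+TGFB, 166, 177 and 191 CPM with OSM+TGFB and 173, 163 and 160.1 CPM with all 3 ligands. All 12 TGFB libraries lay below all 3 PBS libraries, and the 4 TGFB groups overlapped one another except TGFB with EGF+OSM+TGFB. Against PBS the log2 change of MYC was 0.64 ± 0.09 (SE, adjusted p = 4.92e-07) with EGF+OSM, 0.60 ± 0.09 (SE, adjusted p = 1.94e-06) with OSM and 0.46 ± 0.09 (SE, adjusted p = 6.01e-05) with EGF. It was -0.38 ± 0.09 (SE, adjusted p = 0.00147) with TGFB, -0.52 ± 0.09 (SE, adjusted p = 1.10e-05) with EGF+TGFB, -0.50 ± 0.09 (SE, adjusted p = 2.59e-05) with OSM+TGFB and -0.61 ± 0.09 (SE, adjusted p = 1.33e-06) with EGF+OSM+TGFB. In bulk RNA, fewer cells that express a gene and less of its RNA per cell cannot be told apart.

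**Figure D1:**
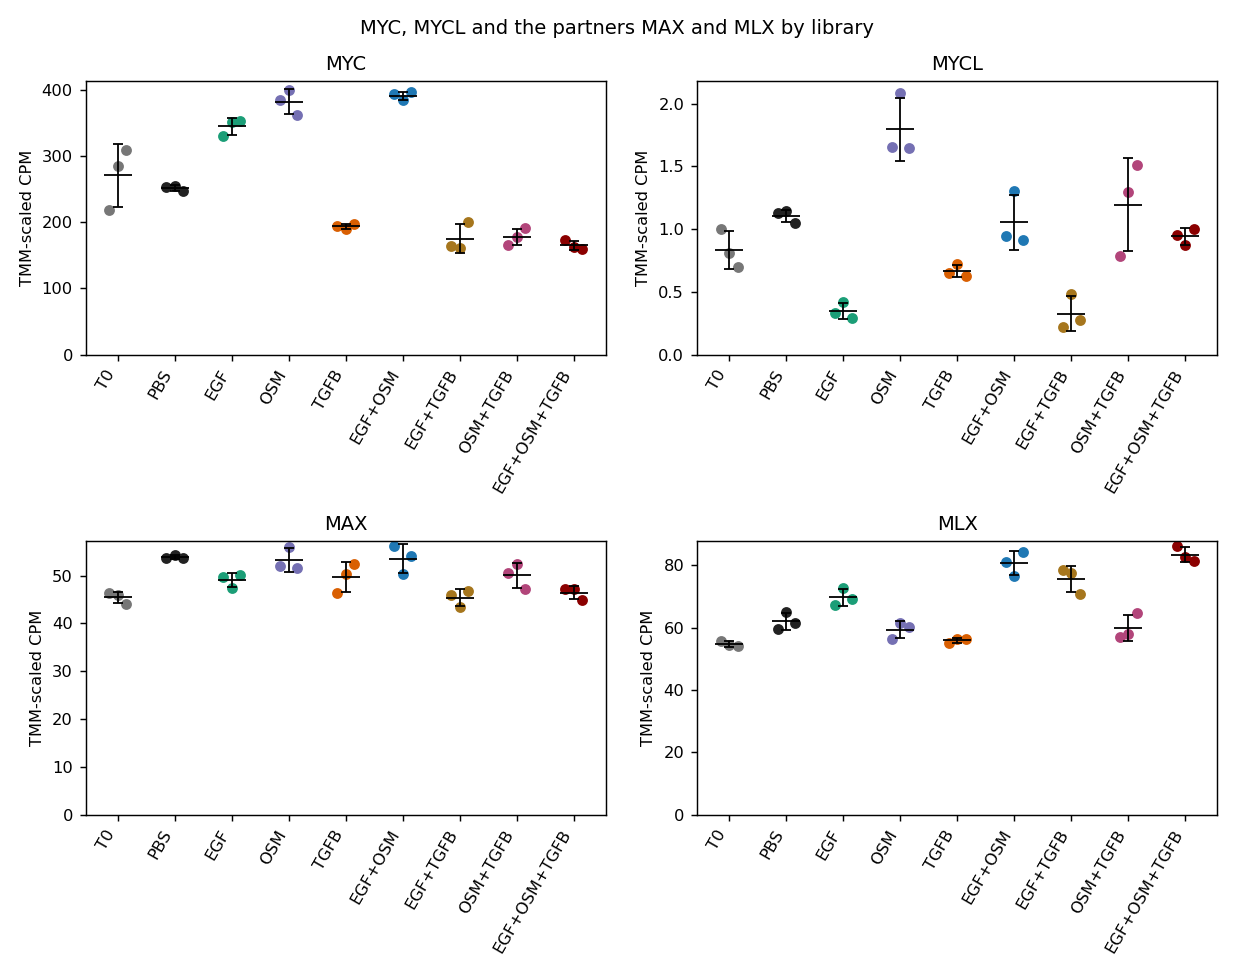
TMM-scaled CPM (vertical axes, from 0) of MYC, MYCL, MAX and MLX in each of the 27 libraries by group; points are libraries, horizontal lines group means and bars SD over 3 libraries. MYC stands highest in EGF+OSM (391 ± 6.19 CPM) and lowest in EGF+OSM+TGFB (165 ± 6.80 CPM), while MAX stays between 43.4 and 56.2 CPM in all libraries.

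Adding TGFB to cells that also received EGF, OSM or both lowered MYC in each setting. The log2 change was -0.98 ± 0.09 (SE, adjusted p = 2.13e-09) when TGFB was added to EGF, -1.10 ± 0.09 (SE, adjusted p = 3.55e-10) when added to OSM and -1.24 ± 0.09 (SE, adjusted p = 1.99e-11) when added to EGF+OSM. The last is the step from the highest to the lowest group mean, a ratio of 2.37. Between PBS and T0, 24 h apart without ligand, MYC gave -0.11 ± 0.09 (SE, adjusted p = 0.384), which did not pass. The T0 libraries were the most spread for MYC, from 218 to 309 CPM around the PBS values, and without T0 replicate 1 the PBS to T0 change was −0.24 (adjusted p = 0.0124), while without T0 replicate 3 it was near 0 (0.002). In the order of group means, EGF+OSM and OSM overlapped, EGF stood apart from both neighbours, and T0 overlapped PBS.

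MYCL (chromosome 1, minus strand), a MYC paralogue, was present at about 1 CPM or less in most groups and changed in another pattern than MYC. With PBS its libraries had 1.13, 1.14 and 1.05 CPM, with EGF 0.334, 0.419 and 0.293 CPM, and with OSM 1.65, 2.09 and 1.65 CPM. These rest on 8 to 94 counts per library, and a processed MYCL pseudogene of similar sequence exists, so how reads were shared between them is uncertain. EGF lowered MYCL, with a log2 change of -1.65 ± 0.27 (SE, adjusted p = 6.91e-06), and the 3 EGF libraries lay below the 3 PBS libraries, opposite to MYC in the same libraries. OSM raised it by 0.70 ± 0.24 (SE, adjusted p = 0.0141), though without OSM replicate 2 the change was 0.57 (adjusted p = 0.0721). With EGF+TGFB it was 0.220, 0.486 and 0.274 CPM, a change of -1.70 ± 0.28 (SE, adjusted p = 6.43e-06). Adding OSM raised MYCL in each of the other ligand settings, by 1.58 ± 0.28 (SE, adjusted p = 6.09e-05) over EGF, by 1.47 ± 0.29 (SE, adjusted p = 0.000322) over EGF+TGFB and by 0.84 ± 0.26 (SE, adjusted p = 0.00815) over TGFB. The last of these was 0.63 (adjusted p = 0.0675) without OSM+TGFB replicate 3. EGF added to OSM gave -0.77 ± 0.24 (SE, adjusted p = 0.00842), and −0.64 (adjusted p = 0.0508) without OSM replicate 2. TGFB alone gave -0.73 ± 0.26 (SE, adjusted p = 0.0302), a call that ended without any 1 of 5 PBS or TGFB libraries (adjusted p 0.0512 to 0.0821) and without the filter on low counts (0.0618).

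MAX (chromosome 14, minus strand), the shared partner, varied least of the 9 members, with a ratio of 1.19 between its highest and lowest group means. Its libraries had 53.7, 54.3 and 53.6 CPM with PBS, 49.7, 47.4 and 50.1 CPM with EGF, 46.0, 43.4 and 46.7 CPM with EGF+TGFB and 47.2, 47.1 and 44.9 CPM with all 3 ligands. The values with EGF+TGFB and with all 3 ligands lay below those with PBS in every library. MAX fell with EGF+TGFB, with a log2 change of -0.25 ± 0.05 (SE, adjusted p = 0.000148), and with EGF+OSM+TGFB, at -0.22 ± 0.05 (SE, adjusted p = 0.000709), and its PBS level was above T0 by 0.25 ± 0.05 (SE, adjusted p = 0.000634). Adding TGFB to EGF+OSM gave -0.21 ± 0.05 (SE, adjusted p = 0.00152). With EGF alone the change was -0.14 ± 0.05 (SE, adjusted p = 0.0229), which became −0.11 (adjusted p = 0.104) without EGF replicate 2 and −0.13 (0.0591) without PBS replicate 2, and −0.13 (0.0592) with no filter on low counts. MAX was not called with OSM, TGFB, EGF+OSM or OSM+TGFB.

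MLX (chromosome 17, 42567072 to 42573239, plus strand) rose in the 4 groups that received EGF and in no other ligand group. It stood at 59.5, 65.0 and 61.5 CPM with PBS, 67.1, 72.7 and 69.3 CPM with EGF, 81.2, 76.6 and 84.2 CPM with EGF+OSM, and 86.1, 82.7 and 81.3 CPM with all 3 ligands. The EGF groups did not overlap PBS. Against PBS the log2 change was 0.38 ± 0.05 (SE, adjusted p = 4.53e-07) with EGF+OSM, 0.29 ± 0.05 (SE, adjusted p = 3.28e-05) with EGF+TGFB and 0.43 ± 0.05 (SE, adjusted p = 7.37e-08) with EGF+OSM+TGFB. With EGF alone it was 0.17 ± 0.05 (SE, adjusted p = 0.0063), and 0.10 (adjusted p = 0.0585) under upper-quartile scaling, which moves the median of all genes with EGF from −0.07 to −0.14. Where another ligand was present EGF also raised MLX, by 0.44 ± 0.05 over OSM, 0.44 ± 0.05 over TGFB and 0.48 ± 0.05 over OSM+TGFB, with adjusted p of 9.44e-08, 7.60e-08 and 5.41e-08. OSM added to EGF raised it by 0.21 ± 0.05 (SE, adjusted p = 0.00288). TGFB alone gave -0.15 ± 0.05 (SE, adjusted p = 0.0305), a call that ended without any 1 of 5 libraries, PBS replicates 2 and 3 and the 3 TGFB replicates (adjusted p 0.0564 to 0.155). PBS was above T0 by 0.18 ± 0.05 (SE, adjusted p = 0.0107), and by 0.14 (adjusted p = 0.072) without PBS replicate 2.

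The MAX-binding repressors MXD4, MXI1, MXD1 and MNT fell with EGF, and MXD3 rose. With EGF 9 of 9 members were called, 3 higher and 6 lower, where 73.5% of all genes tested were called (34.9% higher and 38.6% lower), so a call in this comparison is common. With OSM 5 of 9 were called, 3 higher and 2 lower, against 63.4% of all genes (33.5% higher and 29.8% lower). With TGFB 3 were called, all lower, against 35.6% (19.9% higher and 15.8% lower), and this count was 1 without PBS replicate 2, TGFB replicate 1 or TGFB replicate 2. With EGF+OSM 3 members were called higher and 4 lower, against 77.2% of all genes (37.6% higher, 39.6% lower). With EGF+TGFB 2 were higher and 7 lower, against 73.7% (36.2% higher, 37.5% lower). With OSM+TGFB 1 was higher and 2 were lower, against 66% (34.2% higher, 31.8% lower), and these 3 calls were 6 under upper-quartile scaling. With all 3 ligands 2 were higher and 6 lower, against 74.4% (37.7% higher, 36.7% lower). Calls were common among all genes, so these counts do not set the members apart.

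**Figure D2:**
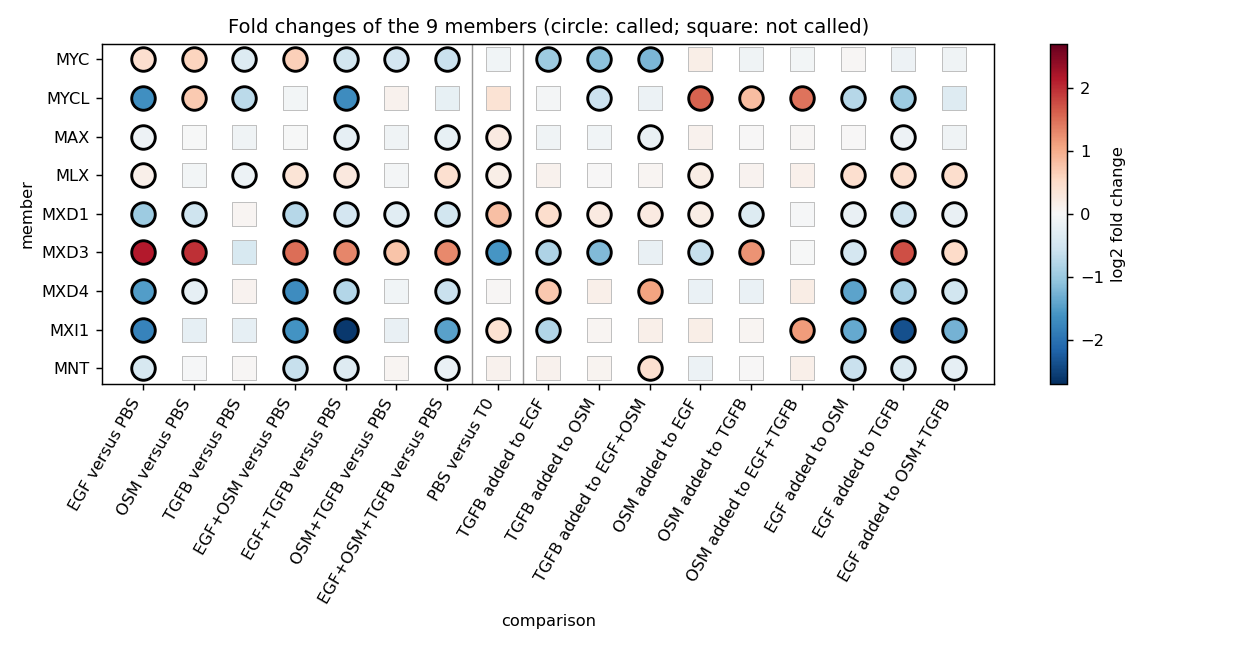
Log2 fold change (colour) of each member (rows) in 17 comparisons (columns); a circle marks a call at an adjusted p under 0.05 and a square none. MXI1 with EGF+TGFB has the most negative value (-2.61) and MXD3 with EGF the most positive (2.13).

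MXD4 (chromosome 4, 2247432 to 2262109, minus strand), a repressor linked to differentiating and resting cells, fell in each of the 4 groups that received EGF. Its PBS libraries had 124, 133 and 132 CPM and its EGF libraries 47.9, 47.0 and 41.1 CPM. With EGF+OSM it was 43.9, 41.1 and 35.7 CPM, with OSM alone 119.9, 117 and 92.1 CPM. All EGF and EGF+OSM libraries lay below all PBS libraries, while 1 of the 3 OSM libraries stood apart from the other two at 92.1 CPM. With TGFB also present the fall was smaller, and the libraries had 72.3, 83.9 and 68.5 CPM with EGF+TGFB and 82.5, 93.9 and 81.4 CPM with all 3 ligands. MXD4 changed by -1.52 ± 0.09 (SE, adjusted p = 6.20e-13) with EGF, -1.69 ± 0.10 (SE, adjusted p = 5.75e-14) with EGF+OSM, -0.79 ± 0.09 (SE, adjusted p = 4.14e-08) with EGF+TGFB and -0.60 ± 0.09 (SE, adjusted p = 3.15e-06) with all 3. Adding TGFB raised it by 0.73 ± 0.09 (SE, adjusted p = 5.93e-07) over EGF and by 1.09 ± 0.10 (SE, adjusted p = 5.88e-10) over EGF+OSM, opposite in direction to MYC in the same libraries. The change with OSM alone, -0.24 ± 0.09 (SE, adjusted p = 0.0244), was −0.13 (adjusted p = 0.206) without OSM replicate 3, −0.22 (0.0718) without PBS replicate 2 and −0.23 (0.0631) without PBS replicate 3.

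MXI1 (chromosome 10, 110207605 to 110287365, plus strand), also called MXD2, showed the widest range of the 9 members, with a ratio of 6.14 between its highest and lowest group means. It had 55.6, 53.1 and 47.1 CPM with PBS, 14.1, 16.1 and 14.5 CPM with EGF and 9.60, 8.18 and 7.61 CPM with EGF+TGFB. The EGF+TGFB libraries lay below all others. The log2 change of MXI1 was -1.80 ± 0.12 (SE, adjusted p = 6.40e-12) with EGF, -1.62 ± 0.12 (SE, adjusted p = 2.47e-11) with EGF+OSM, -1.47 ± 0.12 (SE, adjusted p = 1.82e-10) with all 3 ligands and -2.61 ± 0.13 (SE, adjusted p = 1.87e-14) with EGF+TGFB. When added to EGF, TGFB moved MXI1 the other way from MXD4, with -0.82 ± 0.14 (SE, adjusted p = 2.19e-05). MXI1 was not called when TGFB was added to OSM (43.7 to 45.4 CPM) or to EGF+OSM (16.8 to 18.7 CPM). Adding OSM to EGF+TGFB raised MXI1 by 1.15 ± 0.14 (SE, adjusted p = 7.15e-07), from 8.46 ± 1.02 to 18.7 ± 2.55 CPM (SD, n = 3). OSM alone gave -0.25 ± 0.12 (SE, adjusted p = 0.0696), and passed under DESeq2's size factors (adjusted p = 0.0439), upper-quartile scaling (0.0288) and DESeq2's own test (0.0377). It also passed without PBS replicate 3 (0.0419), OSM replicate 2 (0.0338), EGF+TGFB replicate 3 (0.0425) or OSM+TGFB replicate 3 (0.0447). PBS was above T0 by 0.42 ± 0.12 (SE, adjusted p = 0.00718).

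MXD1 (chromosome 2, 69897688 to 69942945, plus strand), induced when many epithelial and blood cells leave the cell cycle, was highest with PBS and TGFB and lowest with EGF. The PBS libraries had 58.5, 60.8 and 68.3 CPM and the TGFB libraries 59.1, 66.8 and 68.7 CPM, which overlapped. The libraries had 29.5, 32.7 and 33.4 CPM with EGF, 39.1, 44.3 and 43.7 CPM with OSM, 35.9, 36.3 and 38.1 CPM with EGF+OSM and 35.4, 36.6 and 34.4 CPM in T0, all below PBS. During the 24 h in PBS it rose from T0 by 0.82 ± 0.07 (SE, adjusted p = 1.63e-09). MXD1 fell in the EGF group (-0.97 ± 0.07, adjusted p = 1.84e-12), the OSM group (-0.56 ± 0.07, 6.45e-08) and the EGF+OSM group (-0.76 ± 0.07, 1.19e-10). In the TGFB combinations the change against PBS was -0.49 ± 0.07 with EGF+TGFB, -0.31 ± 0.07 with OSM+TGFB and -0.52 ± 0.07 with all 3 (adjusted p 3.80e-07, 0.000238 and 1.43e-07). TGFB raised MXD1 in the presence of the other ligands, by 0.48 ± 0.07 (SE, adjusted p = 1.49e-06) over EGF, 0.25 ± 0.07 (SE, adjusted p = 0.00313) over OSM and 0.24 ± 0.07 (SE, adjusted p = 0.00325) over EGF+OSM.

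**Figure D3:**
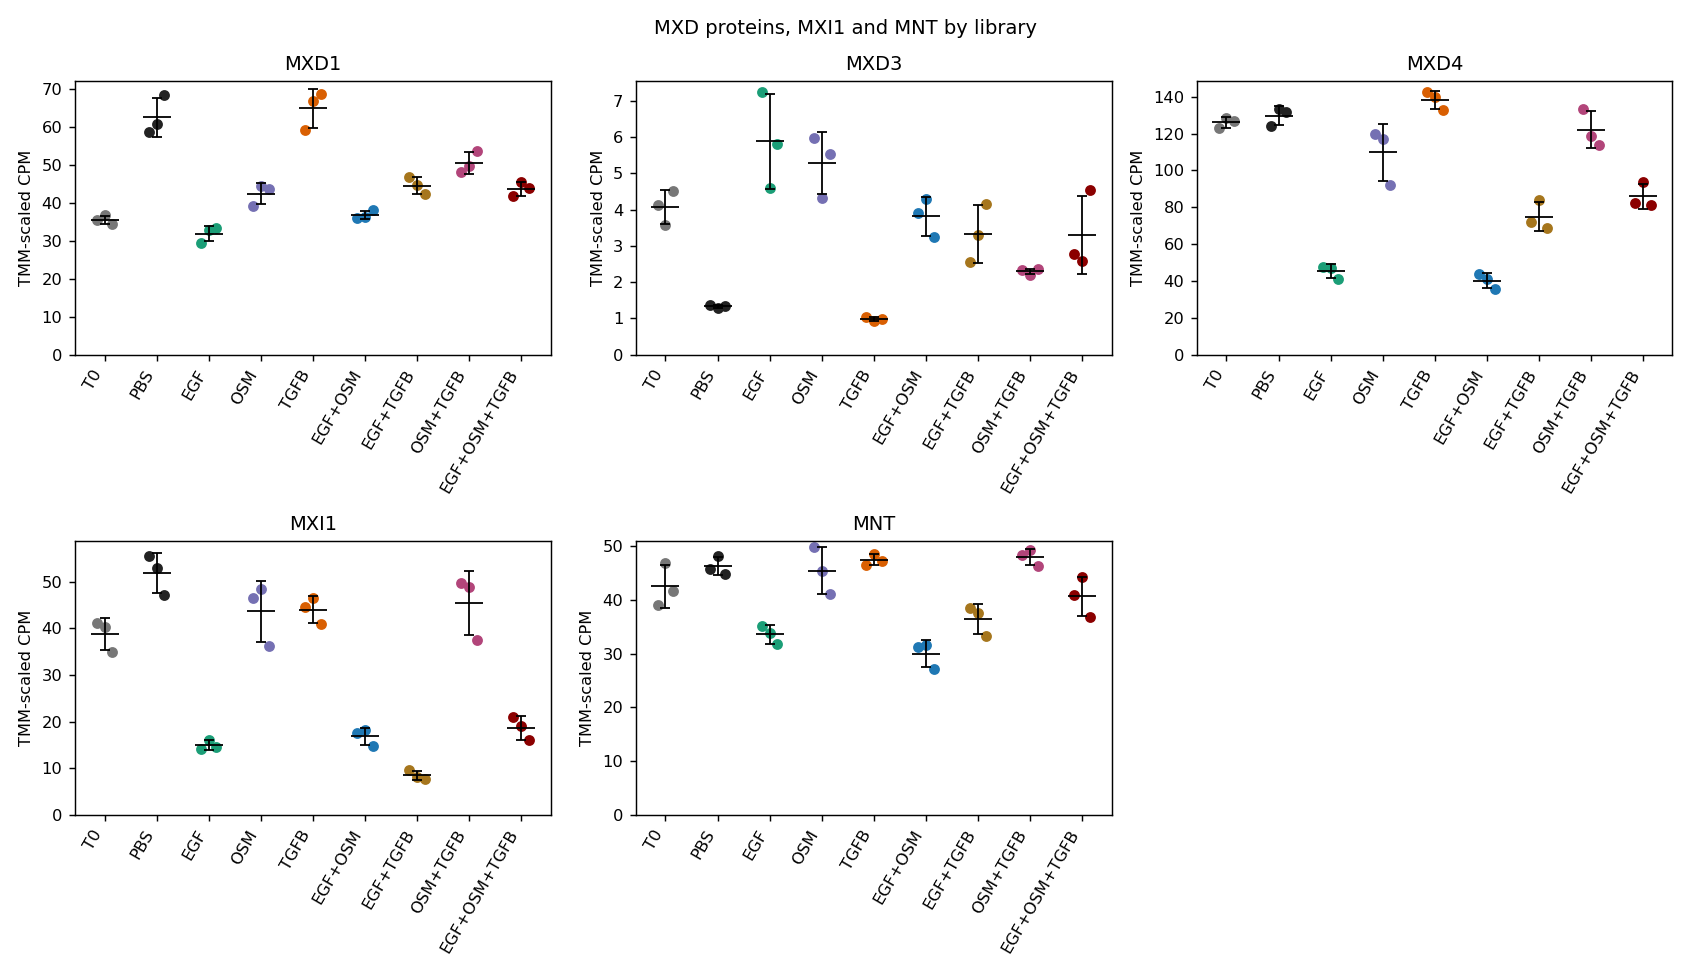
TMM-scaled CPM (vertical axes, from 0) of MXD1, MXD3, MXD4, MXI1 and MNT in each library by group; points are libraries, lines means and bars SD over 3 libraries. MXD4, MXI1 and MNT are low in the groups that received EGF, and MXD3 is low with PBS (1.34 ± 0.0411 CPM) and TGFB (0.988 ± 0.0539 CPM).

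MNT (chromosome 17, 2384073 to 2401104, minus strand), the repressor most broadly expressed across tissues, fell by less than MXD4, in the 4 groups that received EGF. It had 45.8, 48.2 and 44.8 CPM with PBS, 35.1, 33.8 and 31.8 CPM with EGF and 31.3, 31.6 and 27.2 CPM with EGF+OSM, with no overlap between PBS and either. With OSM it had 49.8, 45.3 and 41.1 CPM and with TGFB 46.6, 48.6 and 47.3 CPM, both overlapping PBS. The log2 change was -0.46 ± 0.08 (SE, adjusted p = 7.41e-06) with EGF, -0.63 ± 0.08 (SE, adjusted p = 6.52e-08) with EGF+OSM and -0.34 ± 0.08 (SE, adjusted p = 0.000301) with EGF+TGFB. TGFB added to EGF+OSM raised it by 0.44 ± 0.08 (SE, adjusted p = 2.89e-05). With all 3 ligands the change against PBS was -0.19 ± 0.08 (SE, adjusted p = 0.0327), and it ended as a call without PBS replicate 1 or 2 or EGF+OSM+TGFB replicate 1 or 3 (adjusted p 0.0511 to 0.199).

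MXD3 (chromosome 5, 177301461 to 177312757, minus strand), the family member expressed in S phase of dividing cells, moved opposite to the other repressors with EGF. Its PBS libraries had 1.38, 1.29 and 1.34 CPM, its EGF libraries 7.23, 4.61 and 5.80 CPM and its OSM libraries 5.98, 4.33 and 5.53 CPM, on 36 to 325 counts per library. Every EGF and OSM library was above every PBS library. MXD3 rose by 2.13 ± 0.21 (SE, adjusted p = 1.05e-09) with EGF and 1.98 ± 0.21 (SE, adjusted p = 7.47e-09) with OSM, and less with EGF+OSM, where it had 3.90, 4.31 and 3.24 CPM, a change of 1.51 ± 0.21 (SE, adjusted p = 4.39e-07). It was also above PBS by 1.31 ± 0.21 (SE, adjusted p = 5.33e-06) with EGF+TGFB, 0.78 ± 0.22 (SE, adjusted p = 0.0031) with OSM+TGFB and 1.30 ± 0.22 (SE, adjusted p = 6.26e-06) with all 3. From T0 (4.13, 3.57 and 4.52 CPM) to PBS it fell, with a log2 change of -1.60 ± 0.21 (SE, adjusted p = 1.38e-06). Adding TGFB lowered it over EGF and over OSM, with changes of -0.82 ± 0.19 (SE, adjusted p = 0.000743) and -1.20 ± 0.20 (SE, adjusted p = 1.90e-05). Over EGF+OSM MXD3 was not called, with group means of 3.81 CPM before and 3.30 CPM after TGFB was added. The 8 proliferation genes also moved in these libraries. With EGF 8 rose (median log2 change 3.41, against −0.07 over all genes tested) and with OSM 7 (2.80, against 0.00). From T0 to PBS 7 fell (−1.86, against −0.01). All 8 fell when TGFB was added to EGF (−1.04, against −0.01), to OSM (−1.75, against 0.00) or to EGF+OSM (−1.35, against 0.02). When EGF was added to OSM 7 rose (1.02, against −0.03), where 61.7% of all genes were called. In that step MXD3 was among the members called lower, and its mean went from 5.28 to 3.81 CPM. Of all genes tested 34.9% rose with EGF, 33.5% rose with OSM and 18.9% fell from T0 to PBS. When TGFB was added, 27.7% fell over EGF, 25.6% over OSM and 29.5% over EGF+OSM. Among the 8, MKI67, a marker of dividing cells, changed by 4.59 with EGF, 3.85 with OSM and -2.73 from T0 to PBS, and CCNA2, cyclin A, by 4.51 with EGF and 3.71 with OSM. Their summed level ran from 92.2 to 1938 CPM, and its part in the members' changes was not tested.

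From T0 to PBS 5 of 9 members were called, MAX, MXD1, MXI1 and MLX higher and MXD3 lower, where 35.1% of all genes were called (16.2% higher, 18.9% lower). TGFB added to EGF called 2 members higher and 3 lower, against 54.6% of all genes (27% higher, 27.7% lower). TGFB added to OSM called 1 higher and 3 lower, against 51.6% (26.1% higher, 25.6% lower), and TGFB added to EGF+OSM 3 higher and 2 lower, against 61.1% (31.6% higher, 29.5% lower). In that last step MYC and MAX fell while MXD1, MXD4 and MNT rose. EGF added to OSM called 7 members against 61.7% of all genes, to TGFB 8 against 69.4% and to OSM+TGFB 6 against 52.2%. In all 3 of these steps MXD1, MXD4, MXI1 and MNT fell and MLX rose, while MYC was called in none. OSM added to EGF called 4 members (2 without EGF replicate 1 or EGF+OSM replicate 3) against 34.9%, to TGFB 3 against 56.6% and to EGF+TGFB 2 against 26.4%.

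Whether 2 ligands together gave the sum of their separate log2 changes was tested as a departure from additivity, in which 0 means that the changes add. For EGF+OSM 4 members departed, where 38.7% of all genes did. MYC departed by -0.42 ± 0.12 (SE, adjusted p = 0.00897), lower than the sum, and its EGF+OSM libraries overlapped those of OSM alone. MXD3 departed by -2.60 ± 0.28 (SE, adjusted p = 4.96e-08), the widest of the members, with both single ligands above the pair. MXD1 departed by 0.77 ± 0.10 (SE, adjusted p = 4.47e-07), with the pair lying between OSM and EGF, and MLX by 0.27 ± 0.08 (SE, adjusted p = 0.00497). For EGF+TGFB 5 members departed, against 29.8% of all genes. MYC departed by -0.60 ± 0.12 (SE, adjusted p = 0.000756), and its EGF+TGFB libraries overlapped those of TGFB alone. MXD1 departed by 0.43 ± 0.10 (SE, adjusted p = 0.00125), MXD4 by 0.63 ± 0.13 (SE, adjusted p = 0.000718) and MLX by 0.27 ± 0.08 (SE, adjusted p = 0.00887). MXI1 departed by -0.58 ± 0.18 (SE, adjusted p = 0.0179), a call that ended with no filter on low counts (−0.53, adjusted p = 0.0626) and without EGF+TGFB replicate 2 (−0.55, 0.051) or 3 (−0.46, 0.0697). For OSM+TGFB MYC alone departed, by -0.72 ± 0.12 (SE, adjusted p = 0.00017), where 23.3% of all genes did. That count of 1 was 2 without OSM replicate 2 or EGF+OSM+TGFB replicate 3. No member passed for the 3-way term by edgeR's quasi-likelihood test, where 3.9% of all genes did. In that term 5 members had an unadjusted p under 0.05. The share of all genes under that unadjusted cut is not given here, so this count does not set the members apart. DESeq2 called 2 members, and 915 genes in all.

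Levels of different genes can be set beside each other only per length, here as CPM per kilobase of the longest coding transcript of GENCODE. MYC ranked first of the 9 members in all 9 groups, with 67.6 in PBS and 92.6 with EGF. MXD4 ranked second in PBS (33.5) and 4th with EGF (11.7). MAX stood at 17.1 in PBS and 15.6 with EGF, and MLX at 24.0 and 26.95. MXD3 and MYCL were the lowest in all 9 groups, and the ranks of MYC, MXD3 and MYCL were the same with merged exons as the length. The summed level of the 5 repressors (MXD1, MXD3, MXD4, MXI1 and MNT) divided by that of MYC was 1.03 ± 0.0221 in PBS and 0.851 ± 0.154 in T0 (SD, n = 3, on the per-kilobase scale). It was 0.282 ± 0.0224 with EGF+OSM, 0.337 ± 0.0239 with EGF and 0.585 ± 0.0386 with OSM, below PBS in every library. With TGFB it was 1.35 ± 0.0565 and with OSM+TGFB 1.35 ± 0.176, above PBS in every library. With EGF+TGFB it was 0.833 ± 0.147, below PBS in every library, and with all 3 ligands 1.02 ± 0.0730, which overlapped PBS. These are ratios of RNA and not of protein. The ratio of MYC to MAX was 3.95 ± 0.0509 in PBS, 5.96 ± 0.323 with EGF, 6.08 ± 0.156 with OSM, 3.31 ± 0.217 with TGFB and 3.02 ± 0.0899 with all 3 ligands.

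**Figure D4:**
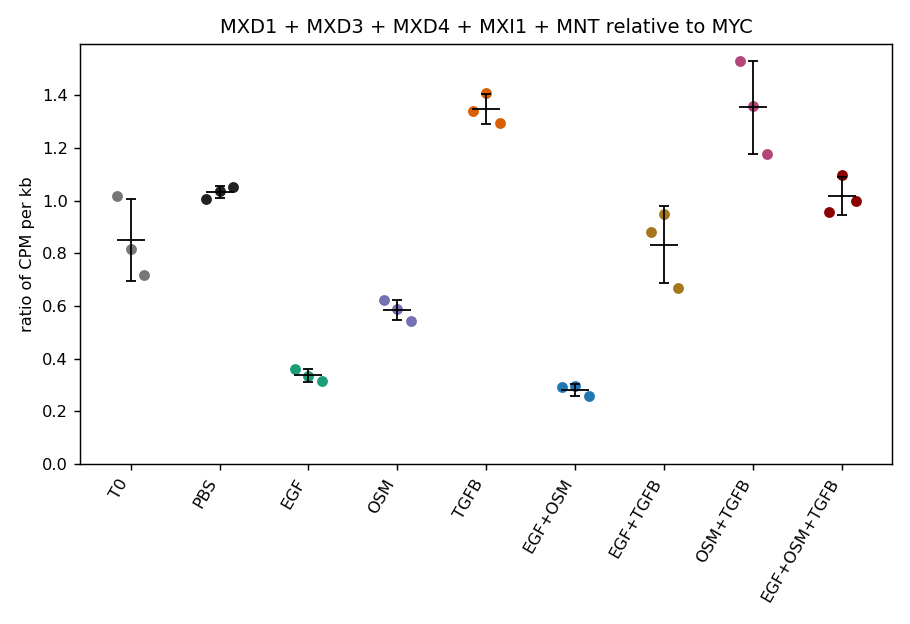
Ratio (vertical axis, from 0) of the summed CPM per kilobase of the 5 repressors to that of MYC in each library by group; points are libraries, lines means and bars SD over 3 libraries. The ratio is lowest with EGF+OSM (0.282 ± 0.0224) and highest with OSM+TGFB (1.35 ± 0.176) and TGFB (1.35 ± 0.0565).

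Over the 9 group means of log2 CPM, which share libraries' depth and scaling, all pairs of members were compared. The most negative were MXD1 with MXD3 (Pearson r = −0.93, n = 9 means) and MXI1 with MLX (−0.80). The most positive were MXD4 with MNT (0.96) and MXI1 with MNT (0.81). Among 9258 protein-coding symbols with a mean over 10 CPM, the symbols closest to MYC over those means were TAF4B (r = 0.98) and KAT2A (0.98), and those closest to MAX were RSBN1 (0.94) and SPATA2 (0.93). MXD4 was closest to DYRK1B (0.99) and THNSL2 (0.99), MXI1 to ZKSCAN8 (0.99) and BCL6 (0.98), and MNT to PIK3IP1 (0.98) and RETREG3 (0.98). MXD1 was closest to GALNT4 (0.97) and ZNF28 (0.97), MXD3 to CENPF (0.96) and NEK2 (0.96), both known mitotic genes, MLX to WDFY2 (0.98) and TMEM41A (0.95), and MYCL to LGALS3BP (0.95) and MUC1 (0.95). These values describe 9 points each and were the highest, or for the negative pairs the lowest, of many searched.

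Of the other 4 genes of the network, MYCN had at most 3 counts in any library and was not tested, and MLXIPL had 3 to 23 counts. MLXIP, the main partner of MLX, rose in each of the 7 ligand groups, from 92.1 CPM with PBS to 154 with TGFB and 295 with all 3 ligands. Its log2 change was 0.37 ± 0.05 (SE, adjusted p = 6.97e-08) with EGF, 0.76 ± 0.05 (SE, adjusted p = 2.07e-13) with OSM, 0.74 ± 0.05 (SE, adjusted p = 1.77e-12) with TGFB and 1.68 ± 0.05 (SE, adjusted p = 1.25e-20) with all 3. Adding TGFB to EGF+OSM raised MLXIP by 1.11 ± 0.05 while MYC fell in the same libraries. MGA, a large MAX-binding repressor, fell with TGFB, at -0.39 ± 0.10 (SE, adjusted p = 0.00193), and with all 3 ligands, at -0.75 ± 0.10 (SE, adjusted p = 1.31e-07). TXNIP and ARRDC4, the best known targets of MLXIP-MLX pairs, both fell with EGF (-2.32 and -1.48) and with OSM (-1.44 and -1.55), while MLX and MLXIP rose with EGF. With TGFB only ARRDC4 of the pair was called, higher by 0.52 ± 0.15 (SE, adjusted p = 0.00945).

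Among the 13 MYC partners and MXD co-repressors, 5 rose and 5 fell with EGF, where 73.5% of all genes were called, so the count does not set the list apart. The median log2 change was 0.05, against −0.07 over all genes tested. The AAA ATPases RUVBL1 (1.27 ± 0.07) and RUVBL2 (0.90 ± 0.07), the MYC-binding WD-repeat protein WDR5 (0.82 ± 0.05) and the deacetylase HDAC2 (0.65 ± 0.05) moved most with EGF, all upward. With TGFB 3 rose and 2 fell, where 35.6% of all genes were called, led by the co-repressor SIN3B (0.36 ± 0.07). That count of 5 was 3 without PBS replicate 2 or without any 1 TGFB replicate. With all 3 ligands 8 rose and 3 fell, where 74.4% of all genes were called, and SIN3A fell most (-0.58 ± 0.05). Adding TGFB to EGF+OSM lowered RUVBL1 (-1.04 ± 0.07) and raised SIN3B (0.76 ± 0.07). Of the 8 genes of MYC protein turnover, 4 rose and 2 fell with EGF (median 0.23, against −0.07 over all genes tested), again near the 73.5% of all genes called. CIP2A (3.36 ± 0.17), which protects MYC from dephosphorylation, AURKA (3.22 ± 0.18), a mitotic kinase, and SKP2 (1.56 ± 0.11), a ubiquitin ligase component, led the rise, and each is also a gene of dividing cells. FBXW7, the ligase component that marks MYC for degradation, fell against PBS in every ligand group, those where MYC rose and those where it fell. Its change was -0.34 ± 0.06 with EGF, -0.41 ± 0.06 with OSM, -0.16 ± 0.06 with TGFB and -0.58 ± 0.06 with EGF+TGFB. The 2 calls of this list with TGFB were 1 or 0 without any 1 PBS or TGFB library.

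The 21 MYC-activated targets, genes of ribosome assembly, nucleotide and polyamine synthesis and growth, moved in the same direction as MYC with EGF and OSM. With EGF 20 rose and 1 fell, where 34.9% of all genes rose and 38.6% fell, with a median of 1.08 against −0.07 over all genes tested. The leading ones were ODC1 (2.29 ± 0.20), the first enzyme of polyamine synthesis, NME1 (1.49 ± 0.08), NOP56 (1.46 ± 0.09) and SRM (1.43 ± 0.08). The 1 that fell, TFRC, the transferrin receptor (-0.81 ± 0.07), was singled out after its value was seen. With OSM 20 rose and 1 fell (median 0.78, against 0.00 over all genes, of which 33.5% rose and 29.8% fell), with LDHA (1.83 ± 0.06), lactate dehydrogenase, in front, and TFRC again the 1 that fell (-0.27 ± 0.07). With TGFB 2 rose and 11 fell (median −0.21), where 19.9% of all genes rose and 15.8% fell, POLR1B (-0.55 ± 0.09), PPAN (-0.37 ± 0.08) and PA2G4 (-0.34 ± 0.08) downward and LDHA (0.33 ± 0.05) upward. These 13 calls were 7 without PBS replicate 2, 7 without TGFB replicate 1 and 8 without TGFB replicate 2.

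MYC and its targets differed in direction in combinations of TGFB with EGF. With EGF+TGFB MYC was below PBS, while 15 targets rose and 4 fell (median 0.41), where 36.2% of all genes rose and 37.5% fell. With all 3 ligands MYC was at its lowest, and 15 targets rose and 4 fell (median 0.30), where 37.7% of all genes rose and 36.7% fell. With OSM+TGFB 5 rose and 4 fell (median 0.00), 9 of 21 called, where 66% of all genes were (34.2% higher, 31.8% lower). When TGFB was added, targets and MYC fell together: 20 of 21 fell over EGF (median −0.70), 19 over OSM (−0.74, 1 rose) and 19 over EGF+OSM (−0.97), against medians over all genes of −0.01, 0.00 and 0.02 and shares of lower genes of 27.7%, 25.6% and 29.5%. In the last step ODC1 (-2.01 ± 0.20), POLR1B (-1.55 ± 0.09), CDK4 (-1.47 ± 0.08) and RRP9 (-1.30 ± 0.09) fell most.

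**Figure D5:**
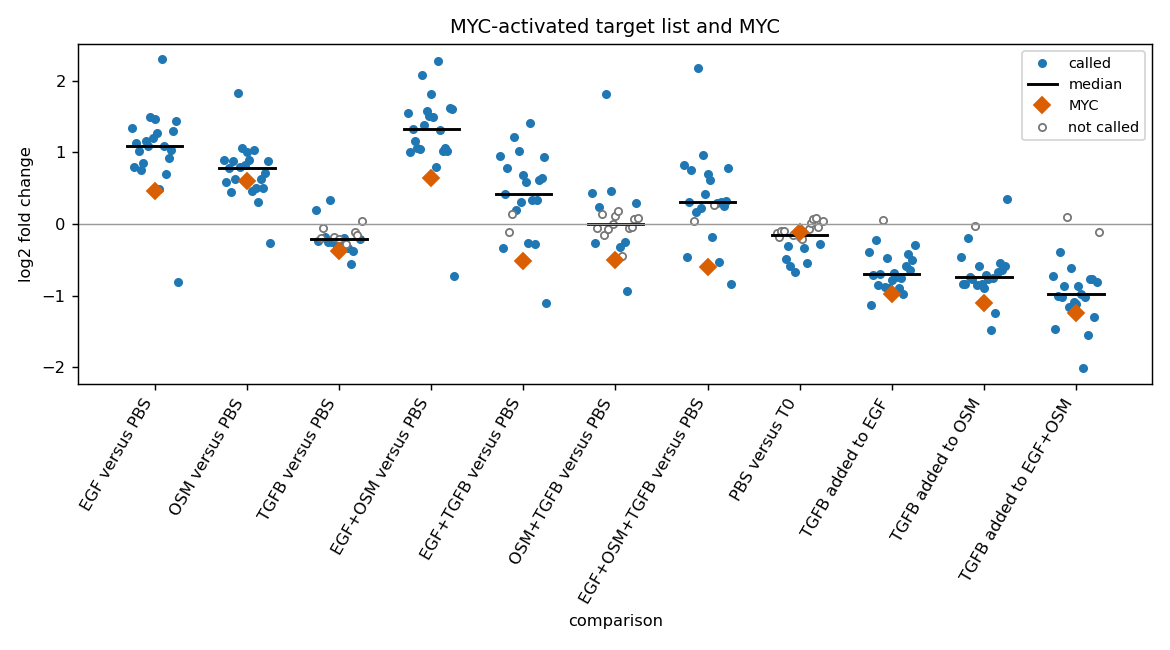
Log2 fold change (vertical axis) of the 21 MYC-activated targets and of MYC in 11 comparisons; filled points were called, open points were not, black lines are medians over the 21 and diamonds are MYC. With EGF+TGFB and with all 3 ligands MYC lies below 0 (-0.52 and -0.61) and the medians of the targets above it (0.41 and 0.30).

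Of the 5 MYC-repressed targets, CDKN2B, whose locus this line is known to have lost, had 0 counts in all 27 libraries and was not tested. With EGF 3 of the other 4 were called, near the 73.5% of all genes, and all 3 were lower (38.6% of all genes), the cell cycle inhibitors CDKN1A (-1.05 ± 0.12) and CDKN1B (-0.85 ± 0.09) and the stress gene NDRG1 (-0.59 ± 0.10). With OSM 3 fell and NDRG1 rose (1.97 ± 0.11), where 29.8% of all genes fell and 33.5% rose, and MYC rose with both ligands. With TGFB 2 of the 4 were called, each higher, where 35.6% of all genes were called and 19.9% rose. These were GADD45A, a growth arrest gene (1.32 ± 0.10), and NDRG1 (1.08 ± 0.10), while CDKN1A (0.13 ± 0.12) and CDKN1B (-0.22 ± 0.09) were not called. Adding TGFB to EGF+OSM raised CDKN1A by 1.26 ± 0.12, in the step in which MYC fell most. There 3 of the 4 were called, all higher (31.6% of all genes), and CDKN1B was not (-0.04 ± 0.10). With all 3 ligands, where MYC was lowest, CDKN1A (-0.32 ± 0.12) and CDKN1B (-1.10 ± 0.10) lay below PBS. GADD45A (0.29 ± 0.11) and NDRG1 (1.61 ± 0.11) lay above it.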

How the data were processed

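The deposited table holds expected counts per gene, which the authors gave as whole numbers. Per the submitters' processing notes, kallisto 0.46.2, Trim Galore 0.4.3, cutadapt 1.10, FastQC 0.11.5 and R 3.5.0 were used with GRCh38.p5 and hg38; the annotation, strand setting and step from transcripts to genes are not given in the sources used here. The 40487 rows were summed by symbol; rows without a symbol (7165 rows, 0.274 to 0.382% of counts) were kept under their Ensembl identifiers. Depth was 30.1 M to 52.9 M counts per library.

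edgeR 4.0.16 (TMM scaling, low-count filter by group, robust quasi-likelihood fit) was run on all 27 libraries with 1 coefficient per group and 21 contrasts, with Benjamini-Hochberg adjustment over 15575 genes. Standard errors are the log2 change divided by the root of its F statistic. The procedure was tested on simulated data. All 9 members were named, at most 4 symbols per list and comparison (those with the largest called change), and the 2 symbols of most similar pattern per member. Members and lists were chosen with earlier results of these data known. The alternatives tried were DESeq2 size factors, upper-quartile scaling, no filter on low counts, the DESeq2 test, unsummed rows, a replicate block, leaving out each library, and merged exons as length. Promoters are from RefSeq, positions from GENCODE v44.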

Additional observations from a re-analysis of the deposited data

Results flagged for a closer look

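A test of the difference between effects singled out 10 values, in which a ligand's log2 change in a member differed between the absence and the presence of a second ligand, each called by the quasi-likelihood test of edgeR after Benjamini-Hochberg adjustment. Between EGF and OSM these were MYC at −0.42, MXD1 at 0.77, MXD3 at −2.60 and MLX at 0.27, where 38.7% of all genes tested departed. Between EGF and TGFB they were MYC at −0.60, MXD1 at 0.43, MXD4 at 0.63, MXI1 at −0.58 and MLX at 0.27, where 29.8% did. Between OSM and TGFB it was MYC at −0.72, where 23.3% did. The MXI1 call ended with no filter on low counts and without EGF+TGFB replicate 2 or 3. Groups of 3 libraries were too small for a check of single libraries that stand apart. No table column lay outside the comparisons.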

How the results depend on the processing

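Across 33 alternatives, 1366 of 1386 counts of called members and of all called genes were within 1.5 times the reported count. Called members with OSM+TGFB were 6 in place of 3 under upper-quartile scaling. The 3-way term called 0 members as reported, 1 with no filter on low counts, 2 by DESeq2 and 3 with a replicate block, and 607 genes in all, 915 by DESeq2 and 1247 with the block. With the replicate block, OSM added to EGF+TGFB called 5 members and the OSM+TGFB departure 2, and MXI1 with OSM passed (−0.25, adjusted p = 0.000983). Leaving out 1 library gave 1 to 4 called members with TGFB, 2 to 5 with OSM added to EGF, 1 to 2 for the OSM+TGFB departure and 0 to 2 for the 3-way term. Of 2739 values of the 83 printed member changes, 2700 kept direction and call, 29 lost the call, 9 gained it and 1 reversed. The last was MYC from T0 to PBS, which ran from −0.24 to 0.0020 over single libraries left out and reversed without T0 replicate 3. The cause was not tested.

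The replicate numbers are only names in the labels. Same-numbered libraries of different groups deviated together little (mean r = 0.0626 over 108 pairs, 23 over 0.1), against −0.0313 for other pairs, though 26 of 27 libraries were closest to their own number, a hint from the data and not from the design. Depth limits MYCL (8 to 94 counts per library) and MXD3 (36 to 325) most.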
